A study of Mus musculus with 38 samples.

Results

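The ectoderm-like cells that retinoic acid (RA) draws out of mouse embryonic stem cells (mESCs) were compared with the mESCs themselves. This report gives genes that set both states apart, with the largest changes ranked outside the established lineage markers. The comparison rests on 4 of the 38 samples of the series: 2 bulk libraries of sorted ectoderm-like cells and 2 bulk libraries of mESCs, chosen by their labels and not by any measured value. The mESCs were of the E14 line, grown in 2i/L, which holds LIF and inhibitors of MEK and GSK3, and received no treatment. The ectoderm-like cells were E14 cells after 96 h in N2B27 medium, which lacks the inhibitors and LIF, with 0.25 µM all-trans RA, from which the CD24+/PDGFRA- fraction had been collected by flow cytometry. CD24 is a surface glycoprotein of neuroectoderm and PDGFRA the PDGF receptor alpha of primitive endoderm, and the gates were set against the signal of undifferentiated mESCs. The PDGFRA+/CD24- fraction of the same stage, termed XEN-like after extraembryonic endoderm, gave 2 further libraries, which entered the same fit. All of these cells carry the background of a single line, and the mESCs were taken as a complete population, so that in these 4 libraries medium, RA, time in culture and the sort cannot be told apart as sources of a difference.

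RA is bound in the cell by Crabp1, which holds it in the cytosol, and by Crabp2, which carries it to the nucleus, where it binds RAR receptors, which sit on DNA with RXR partners and switch on their target genes. Among the targets in the early embryo are the Hox genes, the RA-degrading enzyme Cyp26a1 and the receptor gene Rarb itself. In the absence of signals that hold pluripotency, RA drives mESCs towards the neural plate and towards endoderm of the yolk sac type, and the posterior neural plate is known for Hox expression, Sox transcription factors of the SoxB1 group and adhesion through N-cadherin.

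Between 1547817 and 2297379 UMIs (unique molecular identifiers, tags that let every captured RNA molecule be counted a single time) were assigned to genes in each of the 4 libraries. Levels are given as CPM, the UMIs of a gene relative to the size of its library after TMM scaling, the composition correction of edgeR. The Pearson correlation between replicates across genes was 0.957 for mESCs and 0.949 for ectoderm-like cells. All 4 working markers of the ectoderm-like cells rose, as did 11 of 11 genes of the ectoderm set, whereas 11 of 12 pluripotency genes fell and the remaining gene of that set did not pass the test. The members of these sets were chosen with earlier results of these data known, and the ectoderm set includes Cd24a, a gene of the gates. Their counts are thus a description and no independent test of cell identity. The genes used for the gates followed them only in part: Cd24a read 14.0 and 47.8 CPM in the mESC libraries and 237 and 367 in the ectoderm-like libraries, and Pdgfra read 0.966 and 1.53 in mESCs but 2.95 and 34.9 in ectoderm-like replicates 1 and 2, with an adjusted p of 0.0203 that became 0.384 without ectoderm-like replicate 2 and 0.0597 without mESC replicate 1. Ectoderm-like replicate 2 stood apart in its XEN markers. The summed level of the 11 XEN markers was 310 and 230 in mESCs, 429 in ectoderm-like replicate 1, 1684 in replicate 2, and 11070 and 7054 in the XEN-like libraries, and 8 of these 11 markers were called higher than in mESCs in the ectoderm-like libraries. Their part in the results was not tested. Of other cell types, the mesoderm list summed to 49.2 and 15.9 in ectoderm-like cells against 5.31 and 6.61 in mESCs. Its 1 tested member, Twist1, rose. Of its 12 genes 6 were at 0 in both ectoderm-like libraries, among them Mixl1, Tbx6 and T. The 12 markers of postmitotic neurons summed to 50.1 and 53.2 in ectoderm-like cells against 436 and 1007 in mESCs, with Rbfox3 and Slc17a6 at 0 in all 4 libraries. Stmn2 made up most of the mESC level and fell, as did Nefl. The neural crest list summed to under 20 in each library, with Sox10 at 0 in all 4 libraries and Ets1 the only tested member, which rose. The glial list summed to 30.5 and 81.9 in ectoderm-like cells against 31.9 and 68.6 in mESCs, with 3 of 9 genes tested. The surface ectoderm list summed to 9.34 and 17.7 against 31.9 and 34.1, with 1 of 10 tested. The trophoblast list summed to under 24 in each (2 of 9 tested). The list of blood and endothelium summed to 6.39 and 28.1 against 18.8 and 21.4 (1 of 10 tested). None of these tested members was called higher, and Aldh1l1, Grhl3 and Pecam1 were called lower. Members that were not tested carry no call, and the glial gene Fabp7 is described under other observations. Of the definitive endoderm list, Foxa2, Sox17 and Foxa1 rose and Trh fell. The post-implantation epiblast list summed to 60.9 and 47.1 against 53.1 and 34.6 in mESCs. Of its 7 genes 2 were tested, and of these Dnmt3a rose.

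Of 8947 genes that passed the low-count filter, 881 (9.85% of those tested) were higher and 830 (9.28%) lower in ectoderm-like cells (edgeR quasi-likelihood test, Benjamini-Hochberg adjusted p under 0.05 over all genes). These counts were 419 and 457 without ectoderm-like replicate 2, and 562 and 467 without ectoderm-like replicate 1. Both ectoderm-like libraries lay on the same side of both mESC libraries in all 1711 called genes, as they did in 60.4% of all genes tested. The change was at least 4-fold in the fitted value for 562 of the genes that rose and 482 of those that fell. As a whole, the genes that rose took up 1.09% and 1.04% of the UMIs of the mESC libraries and 4.86% and 5.20% of those of the ectoderm-like libraries, and the genes that fell went from 15.4% and 17.2% to 6.48% in both. The fallers thus started from a higher summed level than the risers, as the plot of mean levels shows. With library totals in place of TMM factors the median of all genes moved by 0.316 on the log2 scale, and the split of called genes went from 51.5% higher to 70.0% higher (1372 higher and 587 lower). With 2 libraries a side, a permutation of libraries cannot give a p below 0.333, so the tests rest on the spread that the 6 libraries of the fit share.

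**Figure D1:**
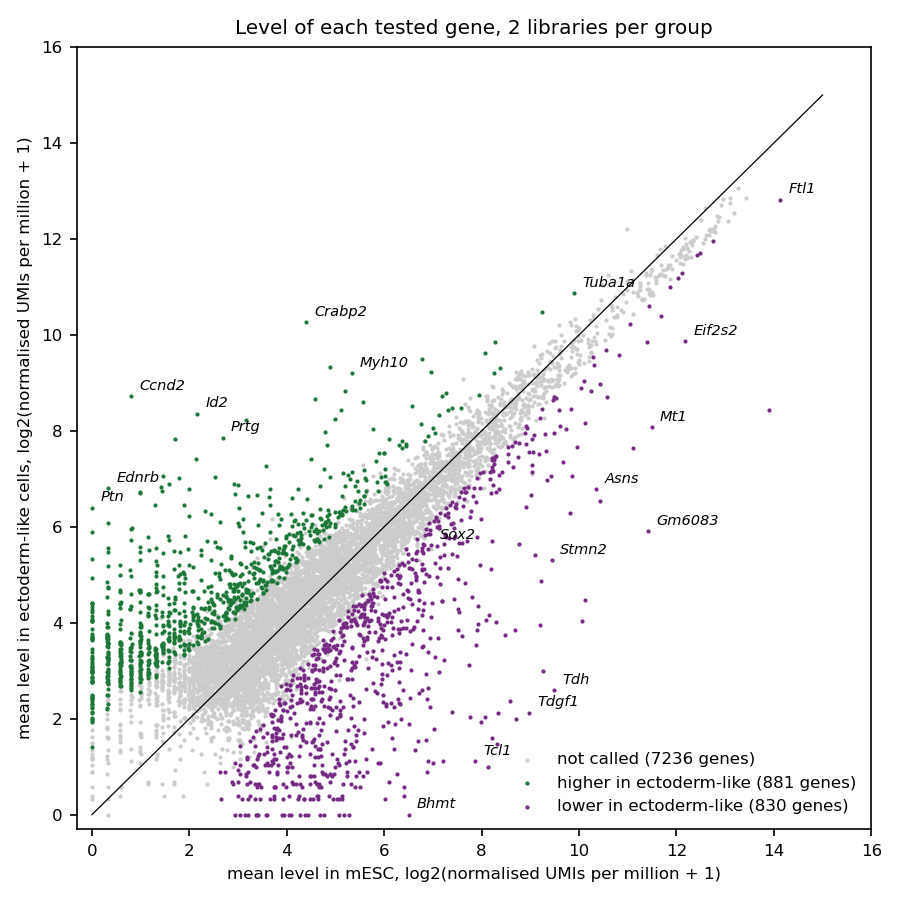
Mean level in mESCs (horizontal axis) and in sorted ectoderm-like cells (vertical axis) for each of 8947 genes, as log2 of TMM-scaled CPM plus 1, with the line of equal level. The 881 genes called higher (green) include Crabp2 and Ccnd2, and many lie at or near 0 in mESCs, whereas the 830 called lower (purple) extend to the most abundant transcripts such as Ftl1.

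The largest rises outside 53 known marker genes (the ectoderm, pluripotency, post-implantation epiblast, XEN and mesoderm sets) came mostly from genes with no trace in mESCs: of the 15 largest, 13 had no UMI in either mESC library, against 64 of all 881 genes called higher. The ranking is by fitted log2 fold change, which puts genes with no UMI in mESCs first. Working markers of the ectoderm-like cells were not left out unless they are among the 53, and Ptn and Ccnd2 of the 15 are such working markers. The 15 genes encode secreted proteins, membrane proteins, a scaffold protein of focal adhesions, a cyclin and transcription factors. Ptn, which encodes pleiotrophin, a secreted heparin-binding growth factor of the nervous system, was absent from both mESC libraries (0 and 0 UMIs) and gave 210 and 104 UMIs in ectoderm-like cells. The groups did not overlap, and the level was at least 115-fold higher (adjusted p = 2.72e-05), a bound that takes 3 UMIs over the 2 mESC libraries as the floor. Ednrb, the endothelin receptor B of migrating neural crest and of neural progenitors, had 0 and 1 UMIs in mESCs and 229 and 179 in ectoderm-like cells, a ratio of 449 with a 95% counting interval from 80.1 to 17800 (adjusted p = 1.45e-05). The 2 ectoderm-like libraries were nearly level, at 112 and 110 CPM.

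Ccnd2, cyclin D2, which couples growth signals to the G1 phase, was the most abundant of the 15. Its 2 and 1 UMIs in mESCs stood against 942 and 625 in ectoderm-like cells, a ratio of 575 (95% counting interval 196 to 2790, adjusted p = 8.85e-06). In the list of G1 cyclins, CDK inhibitors and Myc genes 2 of 18 tested members were called, Ccnd2 and Ccne2, or 11.1%, beside 9.85% higher and 9.28% lower among all genes. Ccne2, the cyclin E2 gene, rose 3.80-fold from 11.1 and 10.2 to 44.7 and 36.1 CPM (adjusted p = 0.00239).

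Nepn and Vtn encode secreted proteins, nephrocan and the adhesion protein vitronectin. Nepn had no UMI in mESCs and 67 and 138 in ectoderm-like cells (at least 75.2-fold higher, adjusted p = 0.00202 by edgeR and 0.0754 by DESeq2). Vtn had none in mESCs and 26 and 107 in ectoderm-like cells (at least 48.8-fold, adjusted p = 0.00164). Both were higher in ectoderm-like replicate 2, the library with the higher XEN marker level. Without that library the fitted log2 fold change of Vtn went from 9.13 to 7.54 and that of Nepn from 9.73 to 8.90. In the XEN-like libraries themselves Vtn had 0 and 1 UMIs and Nepn 0 and 11. Fbn2, a fibrillin of extracellular microfibrils, went from 0 and 0 to 35 and 24 UMIs (at least 21.6-fold, adjusted p = 0.000567).

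Among membrane and adhesion proteins, Nedd9, a scaffold protein at focal adhesions, had 64 and 45 UMIs in ectoderm-like cells (at least 40.0-fold) and Tspan12, a tetraspanin that acts with frizzled receptors, 39 and 35 (at least 27.1-fold), both against 0 in mESCs. Of the transcription factors, Zfp608 (63 and 16 UMIs), Osr1 (54 and 22), Zfp703 (53 and 17), Zeb2 (47 and 17), Nr2f1 (46 and 21) and Rarb (45 and 14) had no UMI in mESCs and were higher in ectoderm-like replicate 1. Foxa2, a forkhead factor of endoderm, node and floor plate, ran the other way with 23 and 44 UMIs, also from 0 in mESCs. Their bounds lay between at least 21.6-fold for Rarb and at least 29.0-fold for Zfp608, and each passed the test (adjusted p between 0.000582 for Osr1 and 0.00192 for Rarb). The plot of the single libraries shows these 15 genes beside the 12 largest falls.

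**Figure D2:**
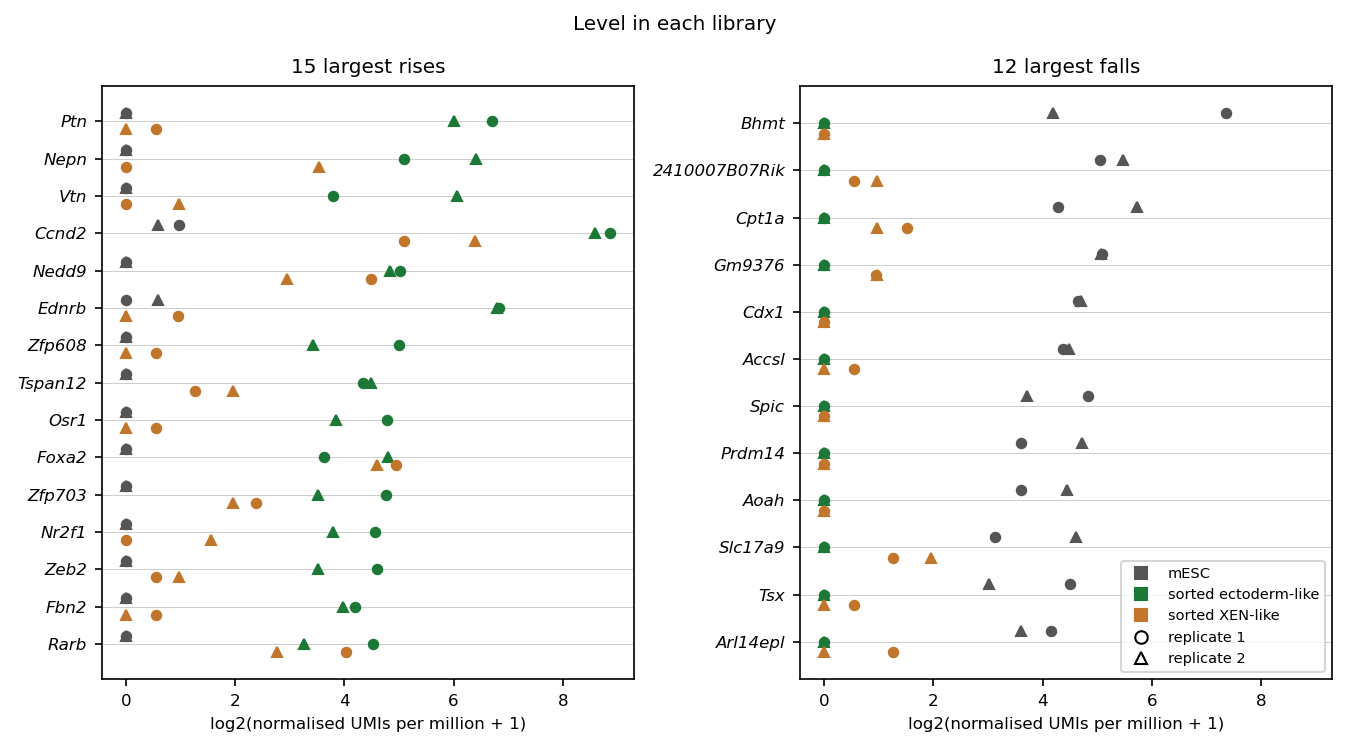
Level of the 15 genes with the largest rise and the 12 with the largest fall, as log2 of TMM-scaled CPM plus 1, in each of the mESC, ectoderm-like and XEN-like libraries (circles replicate 1, triangles replicate 2). In the left panel every ectoderm-like point lies to the right of both mESC points, Foxa2, Nedd9 and Rarb have XEN-like points near or among the ectoderm-like ones, and in the right panel every ectoderm-like point lies at 0.

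Genes of the RA pathway itself were among those that rose. Of the 18 tested genes of the retinoid list, 11 rose and none fell (61.1% called), with a median log2 fold change of 3.47 against 0.045 for all genes. Crabp2, the carrier that hands RA to its receptors, was the ectoderm-like marker with the largest gain in level: 21.7 and 18.3 CPM in mESCs and 1407 and 1053 in ectoderm-like cells, 61.4-fold higher (standard error of the log2 fold change 0.33, adjusted p = 4.12e-06). The orphan nuclear receptor Nr2f1 and the RA receptor Rarb are described above. Rbp4, the retinol carrier of plasma and yolk sac, had 1 and 1 UMIs in mESCs but 6 and 112 in ectoderm-like cells. Without ectoderm-like replicate 2 its call was lost (adjusted p = 0.148 against 0.0102), and the XEN-like libraries had 44 and 21.

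Promoters of the tested genes were searched for direct repeats of the hexamers that RAR-RXR pairs bind, namely AGGTCA or its variant forms AGTTCA and also GGGTCA and also GGTTCA, followed after 5 bases by any of these 4 in the same orientation, on either strand. Windows of 300 bases around RefSeq transcription starts (250 before to 50 after, GRCm38.p6) could be matched by symbol to 6716 of the 8947 tested genes. The repeat lay in the windows of 4 of them (0.0596%), and in 31 of all 27025 genes with a window (0.115%). Of the 4, Rarb, Cyp26a1 and Hbb-y were called higher and Blvrb was called lower, so that 3 of 648 matched genes that rose and 1 of 608 that fell hold it. The same hexamers 2 bases apart were found in 6 tested genes, none of them called. The 4 windows are shown because they hold the repeat and their genes were called, and capitals mark the repeat. Whether RA acts on these genes through the repeat was not tested. They lie at chr14:16575427-16575726 on the minus strand (Rarb), chr19:37697558-37697857 on the plus strand (Cyp26a1), chr7:103853158-103853457 on the minus strand (Hbb-y) and chr7:27452168-27452467 on the plus strand (Blvrb), each written 5′ to 3′ along its gene. The RefSeq starts used for Rarb and Blvrb lie inside the span that GENCODE M21 gives these genes, chr14:16430839-16819156 and chr7:27447978-27466144, so that the windows do not cover the outermost start.
Rarb: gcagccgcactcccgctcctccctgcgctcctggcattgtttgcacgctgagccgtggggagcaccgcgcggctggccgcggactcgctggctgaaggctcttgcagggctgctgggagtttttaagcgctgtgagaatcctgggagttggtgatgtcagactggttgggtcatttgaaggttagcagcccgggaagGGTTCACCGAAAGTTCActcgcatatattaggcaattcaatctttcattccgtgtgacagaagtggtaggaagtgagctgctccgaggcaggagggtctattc
Cyp26a1: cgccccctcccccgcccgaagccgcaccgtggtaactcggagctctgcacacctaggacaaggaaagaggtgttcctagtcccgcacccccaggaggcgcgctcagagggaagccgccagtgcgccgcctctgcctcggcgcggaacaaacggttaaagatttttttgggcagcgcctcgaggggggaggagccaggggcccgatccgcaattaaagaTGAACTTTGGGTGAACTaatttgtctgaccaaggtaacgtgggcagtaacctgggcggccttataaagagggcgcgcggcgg
Hbb-y: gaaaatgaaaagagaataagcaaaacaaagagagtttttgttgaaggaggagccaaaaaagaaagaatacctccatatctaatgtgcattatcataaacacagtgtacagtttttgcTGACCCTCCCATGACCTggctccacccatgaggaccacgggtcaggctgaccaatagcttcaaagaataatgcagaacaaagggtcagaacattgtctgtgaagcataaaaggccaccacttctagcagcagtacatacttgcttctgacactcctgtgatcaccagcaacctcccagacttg
Blvrb: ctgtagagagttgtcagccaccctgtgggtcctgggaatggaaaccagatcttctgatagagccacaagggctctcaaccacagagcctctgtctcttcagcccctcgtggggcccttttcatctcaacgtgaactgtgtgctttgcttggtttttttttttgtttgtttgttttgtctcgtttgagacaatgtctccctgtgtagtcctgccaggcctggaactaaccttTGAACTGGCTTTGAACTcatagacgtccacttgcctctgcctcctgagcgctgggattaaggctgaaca

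The repeat began 53 bases before the start in Rarb, 32 in Cyp26a1, 133 in Hbb-y and 19 in Blvrb, and in Rarb alone it read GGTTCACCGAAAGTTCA in the direction of the gene. Apart from Rarb, these genes were picked for the repeat once their values were known. Cyp26a1, which degrades RA, had 2 and 2 UMIs in mESCs and 58 and 33 in ectoderm-like cells (24.6-fold in level, adjusted p = 0.000203). In XEN-like cells it had 532 and 162 UMIs and was higher than in ectoderm-like cells by 3.05 on the log2 scale. Hbb-y, an embryonic globin whose paralogs can share reads with it, had 1 and 0 UMIs in mESCs and 17 and 35 in ectoderm-like cells (adjusted p = 0.00301, and 0.0640 without ectoderm-like replicate 2). Blvrb, a biliverdin reductase, fell from 47.8 and 44.7 to about 10 or 11 CPM (4.34-fold lower, adjusted p = 0.00117).

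The lists of Sox and of Hox transcription factors had the highest shares of risers among the 21 gene lists. The count of every list stands beside 9.85% higher and 9.28% lower among all genes tested. Of the 11 tested Sox and proneural genes 9 rose, and the single faller was Sox2. Of the 14 tested Hox, TALE and caudal genes 11 rose, and the single faller was Cdx1. Hoxb2, a homeobox gene of the hindbrain, had 3 and 6 UMIs in mESCs and 700 and 181 in ectoderm-like cells, 101-fold higher in level (adjusted p = 5.1e-05). Replicate 1 held about 3 times the level of replicate 2, at 344 and 111 CPM, and both lay far above the mESCs. The fitted log2 fold change of 6.63 was 5.62 without replicate 1 and 7.21 without replicate 2. Meis1, a TALE partner of Hox proteins, read 134 and 102 CPM against 1.45 and 2.54 (59.2-fold, adjusted p = 1.23e-05). Hoxb3 had no UMI in mESCs and 25 and 9 in ectoderm-like cells (at least 12.5-fold). Hoxa2, Hoxb4, Hoxb9, Meis2, Meis3 and Pknox2 were among the others called higher. Without ectoderm-like replicate 1 the number of risers in this list went from 11 to 5, and with no low-count filter it went to 20.

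Sox4, a SoxC factor of neural progenitors, had 0 and 1 UMIs in mESCs and 104 and 68 in ectoderm-like cells, a ratio of 189 (95% counting interval 33.5 to 7520, adjusted p = 3.95e-05). Sox6 went from none to 15 and 10 UMIs. Sox2, which serves both pluripotency and the neural plate, read 94.7 and 153 CPM in mESCs and 48.6 and 47.7 in ectoderm-like cells, 2.57-fold lower. Its call (adjusted p = 0.0165) ended with library totals (0.0514) and without mESC replicate 2 or either ectoderm-like library (0.0978 to 0.105). Sox1 and Sox11 of the ectoderm set rose, as did Sox3, Sox9, Sox12 and Sox21.

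Of 10 tested neural patterning factors 5 rose and none fell. Foxb1, a forkhead factor of the diencephalon and the caudal neural tube, had 0 and 1 UMIs in mESCs, 44 and 106 in ectoderm-like cells and none in XEN-like cells (ratio to mESCs 165, 95% counting interval 29.2 to 6560, adjusted p = 0.000543). Pax6 had 2 and 0, then 84 and 33, and also none in XEN-like cells. Sp8, a zinc finger factor, went from 0 and 0 to 20 and 34 UMIs (at least 19.8-fold) and had 33 and 18 in XEN-like cells, a difference that did not pass the test (adjusted p = 0.918).

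Of the 19 tested heparin-binding growth factors and proteoglycans 12 rose and 1 fell (68.4% called). Beside Ptn and its relative Mdk, the glypicans Gpc1, Gpc2, Gpc3 and Gpc6, the syndecans Sdc1 and Sdc2 and versican (Vcan) rose, and the syndecan gene Sdc4 fell. The call of Gpc1 was lost by DESeq2 and without mESC replicate 1 or either ectoderm-like library (adjusted p between 0.0529 and 0.171). Hs6st2, which adds sulphate groups to heparan chains, had 1 and 1 UMIs in mESCs and 55 and 21 in ectoderm-like cells (ratio 41.8, 95% counting interval 11.2 to 351, adjusted p = 0.000957). Sdc4 read 103 and 115 CPM in mESCs, 34.9 and 63.0 in ectoderm-like cells and 335 and 329 in XEN-like cells. Its call against mESCs (adjusted p = 0.0204) was lost with library totals and without mESC replicate 2 or ectoderm-like replicate 1, up to 0.194.

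Of 18 tested axon guidance and neural adhesion genes 8 rose and 1 fell, among the risers Cdh2, which encodes N-cadherin, and Robo2. Sema3c, a secreted semaphorin, went from 1 and 1 to 32 and 40 UMIs (ratio 39.6, 95% counting interval 10.6 to 333, adjusted p = 0.000543). Efna5, an ephrin ligand, went from 1 and 2 to 51 and 35 (ratio 31.5, interval 10.4 to 156, adjusted p = 0.000262). The semaphorin co-receptor Nrp1 had 0 and 1 UMIs in mESCs and 31 and 21 in ectoderm-like cells. The faller, the ephrin receptor Epha2, lost its call without mESC replicate 2 or ectoderm-like replicate 1 (adjusted p up to 0.154 against 0.0183).

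The cytoskeleton of neurons and growth cones moved in both directions. Of 23 tested genes 9 rose and 4 fell. Gap43, a growth cone protein, had 0 and 1 UMIs in mESCs and 26 and 38 in ectoderm-like cells (ratio 70.4, 95% counting interval 12.2 to 2820, adjusted p = 0.00073), and Dpysl2, a collapsin response mediator, rose 7.52-fold from 13.5 and 9.66 to 57.5 and 117 CPM (adjusted p = 0.00062), a log2 fold change of 2.90 that was 2.29 without ectoderm-like replicate 2. Stmn2, a microtubule regulator otherwise known from neurons, instead fell from 396 and 992 to 44.7 and 32.4 CPM (log2 fold change -4.16 ± 0.54 SE, adjusted p = 0.000342, and a log2 fold change of -3.38 without mESC replicate 2). Tubb2b, Stmn3 and Nefl were called lower as well. Stmn3 lost its call without either ectoderm-like library (adjusted p = 0.0828 and 0.0626). Nefl lost it with library totals and without mESC replicate 1 or either ectoderm-like library (0.0636 to 0.254).

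Actin-binding, junction and keratin genes were called in 16 of 38 tested cases, 12 higher and 4 lower. Myh10, the non-muscle myosin IIB heavy chain, is not a member of this list but was among the genes with the largest gain in level. It read 42.0 and 36.6 CPM in mESCs and 824 and 354 in ectoderm-like cells, 15.0-fold higher (adjusted p = 0.000198, log2 fold change 3.90, and 3.20 without ectoderm-like replicate 1). Tagln, an actin-binding protein of contractile cells, rose 75.5-fold from 1.45 and 2.03 to 42.3 and 221 CPM (adjusted p = 0.00062), and Krt18, a keratin of simple epithelia, 61.5-fold from 1.93 and 1.52 to 50.1 and 163 (adjusted p = 0.000179). Both were higher in ectoderm-like replicate 2. Without that library the log2 fold change of Tagln went from 6.18 to 4.54 and that of Krt18 from 5.88 to 4.79. In XEN-like cells Tagln read 3.73 and 11.6 but Krt18 91.9 and 146. Cdh1, which encodes E-cadherin, fell 8.78-fold from 82.1 and 107 to 9.34 and 12.2 CPM (adjusted p = 0.000153), whereas Cdh2 rose. Jup, plakoglobin, fell 9.47-fold, with a log2 fold change of -3.27 that was -2.68 without ectoderm-like replicate 1 and -4.03 without replicate 2.

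Signalling genes were arranged by pathway. Of 24 tested Wnt pathway genes 8 rose and 3 fell. The frizzled receptor gene Fzd3 went from 5 and 0 UMIs to 111 and 87 (44.6-fold in level, adjusted p = 0.000179). Its log2 fold change of 5.37 was 4.42 without mESC replicate 2 and 9.57 without mESC replicate 1, which held all of its mESC UMIs. Another frizzled, Fzd5, fell from 23.2 and 25.9 to 1.97 and 1.22 CPM (adjusted p = 0.000353). Fzd2 and Fzd7 rose and Fzd10 fell, the last with a call that was lost under 6 alternatives. The secreted Wnt antagonist Sfrp5 had 1 and 1 UMIs in mESCs and 64 and 15 in ectoderm-like cells, but 67 and 1 in XEN-like cells. Its call was lost without ectoderm-like replicate 1 (adjusted p = 0.137 against 0.0158).

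The Hedgehog list had 5 of its 17 genes above the filter, of which 3 rose: Smo, the membrane protein that passes the signal on, Gli3, the transcription factor at its end, and Gas1, a co-receptor. The call of Gli3 was lost by DESeq2 (adjusted p = 0.0711), without mESC replicate 2 (0.102) and without ectoderm-like replicate 1 (0.297). Gas1 read 1.93 and 1.02 CPM in mESCs and 51.1 and 25.1 in ectoderm-like cells (25.8-fold, adjusted p = 0.00204), and Smo rose 5.38-fold (adjusted p = 0.00322). Of 10 tested Notch genes 2 rose (20.0%, beside 9.85% higher among all genes). Notch2 rose 11.2-fold from 3.38 and 4.07 to 37.4 and 45.9 CPM (adjusted p = 0.000511), and Hes5, a Notch target of neural progenitors, had no UMI in mESCs or XEN-like cells and 17 and 11 in ectoderm-like cells (at least 10.3-fold higher than mESCs, adjusted p = 0.0042).

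The FGF and ERK response list held 7 risers and 3 fallers among 16 tested genes. The mESC medium contains an inhibitor of MEK, the kinase above ERK, and the differentiation medium does not. Fgf15, a ligand of the neural tube, had 2 and 1 UMIs in mESCs and 85 and 130 in ectoderm-like cells (ratio 78.8, 95% counting interval 26.6 to 385, adjusted p = 8.11e-05), with 0 and 1 in XEN-like cells. Phlda1 had 4 and 0 UMIs in mESCs and 68 and 26 in ectoderm-like cells (25.5-fold in level, adjusted p = 0.00305). Its log2 fold change of 4.56 was 3.62 without mESC replicate 2 and 8.46 without mESC replicate 1, which held all of its mESC UMIs. Fgf4, the FGF ligand of pluripotent cells, had 55 and 73 UMIs in mESCs and 1 and 0 in ectoderm-like cells (ratio 116, interval 20.5 to 4630, adjusted p = 0.000223), and Etv5 fell 27.2-fold from 61.4 and 85.4 to 2.95 and 2.45 CPM. Spry2, a feedback inhibitor of the pathway, fell 5.15-fold, whereas Dusp6 and Spred1, also feedback inhibitors, were called higher.

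Of 17 tested genes of Nodal and BMP signalling and the Id family 6 rose and 4 fell, the Id genes among the former and the Nodal ligand and co-receptor among the latter. Id2, an inhibitor of basic helix-loop-helix factors and a BMP target, read 3.86 and 3.05 CPM in mESCs and 291 and 363 in ectoderm-like cells, 94.5-fold higher (log2 fold change 6.53 ± 0.50 SE, adjusted p = 1.61e-05). Id1 rose 28.3-fold, with a log2 fold change of 4.76 that was 5.66 without mESC replicate 1, and Id3 was also called. Tdgf1, the Nodal co-receptor Cripto, fell 149-fold from 427 and 580 to 4.92 and 1.83 CPM (adjusted p = 8.85e-06, log2 fold change -7.14, and -8.01 without ectoderm-like replicate 1), Gdf3 52.6-fold and Nodal itself 32.6-fold. For Nodal the log2 fold change of -5.02 was -4.28 without ectoderm-like replicate 1 and -6.09 without replicate 2.

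Imprinted genes and the IGF system gave 16 risers among 27 tested genes and 1 faller (63.0% called; median log2 fold change 2.63). Peg10 rose 59.6-fold from 2.42 and 0.508 to 136 and 38.5 CPM (adjusted p = 0.000365). Its log2 fold change of 5.82 was 4.67 without ectoderm-like replicate 1 and 7.23 without mESC replicate 1. Magel2 went from no UMI to 13 and 14. Igfbp5, an IGF-binding protein, had 1 and 2 UMIs in mESCs and 118 and 75 in ectoderm-like cells (ratio 70.8, 95% counting interval 23.9 to 346, adjusted p = 3.39e-05), whereas Igfbp2 fell 4.90-fold from 54.6 and 66.1 to 14.3 and 10.4 CPM (adjusted p = 0.00101). Igf2, H19, Peg3, Mest, Cdkn1c, Nnat and Ndn were among the other risers.

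Of 16 tested RNA-binding proteins of the fetal programme and Hmga genes 4 rose and none fell. Lin28b went from 0 and 2 to 51 and 26 UMIs and Lin28a rose 5.64-fold from 35.8 and 16.3 to 146 and 147 CPM (adjusted p = 0.000664, log2 fold change 2.49, and 3.16 without mESC replicate 1). Ptbp2, the neural paralog of the splicing repressor Ptbp1, rose 6.65-fold (adjusted p = 0.00151).

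**Figure D3:**
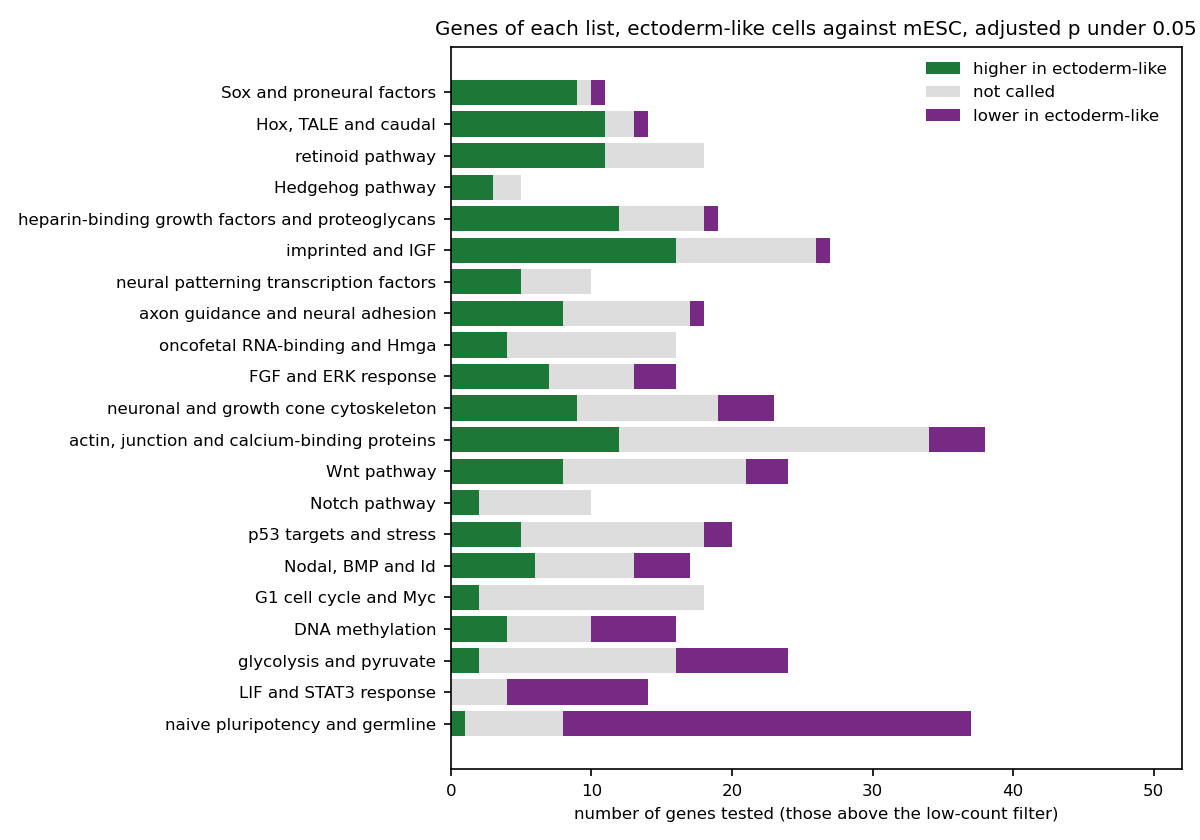
Number of tested genes in each of 21 gene lists that were higher in ectoderm-like cells (green), not called (grey) or lower (purple) at an adjusted p under 0.05, ordered by the balance of both directions. Sox and proneural factors (9 of 11 higher) stand at the top and the naive pluripotency and germline list (29 of 37 lower) at the bottom, against 9.85% higher and 9.28% lower among all genes tested.

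The fall from the mESC state reached beyond the core pluripotency factors. The 12 genes with the largest falls outside the marker sets had no UMI in either ectoderm-like library, as 22 of all 830 genes called lower did, and 5 of them had none in the XEN-like libraries either. Bhmt, which remethylates homocysteine with betaine, had 336 and 34 UMIs in the mESC libraries, so that the replicates of this group were far apart. Over both mESC libraries it was at least 112-fold lower in ectoderm-like cells (adjusted p = 0.00305 by edgeR and 0.178 by DESeq2). Its fitted log2 fold change of -10.4 was -7.94 without mESC replicate 1 and -11.2 without mESC replicate 2. Cpt1a, which takes fatty acids into mitochondria, had 38 and 102 UMIs (at least 42.4-fold lower, adjusted p = 0.00044), and 2410007B07Rik 67 and 85 (at least 46.1-fold, adjusted p = 6.67e-05). The caudal homeobox gene Cdx1, a known Wnt target, had 50 and 49 (at least 30.0-fold, adjusted p = 0.000329). The GSK3 inhibitor in the mESC medium activates Wnt signalling, and its part in this result was not tested. Prdm14, a regulator of naive pluripotency and germ cells, had 23 and 50, the Ets factor gene Spic 57 and 24, and Aoah 23 and 41. These last 3 passed the test by edgeR and not by DESeq2, where the adjusted p was 0.357, 0.347 and 0.374. Gm9376, Accsl, Slc17a9, Tsx and Arl14epl completed the 12, with bounds between at least 17.3-fold and at least 40.0-fold.

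Of the 37 tested naive pluripotency and germline genes 29 fell and 1 rose (81.1% called; median log2 fold change -3.33). Tdh, threonine dehydrogenase, an enzyme that mESCs are known to depend on, read 635 and 801 CPM in mESCs and 3.93 and 6.12 in ectoderm-like cells, 143-fold lower (log2 fold change -7.16 ± 0.38 SE, adjusted p = 4.12e-06). Tcl1, a coactivator of Akt, fell 200-fold from 178 and 288 to 0.491 and 1.83 CPM (adjusted p = 9.88e-06), with a log2 fold change of -7.64 that was -6.89 without ectoderm-like replicate 1 and -8.70 without replicate 2. Germline genes such as Dazl, Sycp3, Stk31 and Morc1 fell with them. The gene that rose, Zscan4c, belongs to a cluster of near-identical copies among which reads may be split. It read 30.5 in ectoderm-like replicate 1 but 3.06 in replicate 2, and its call was lost without that first library (adjusted p = 0.667) and without either mESC library.

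Of 14 tested genes of the LIF and STAT3 response 10 fell and none rose. LIF is present in the mESC medium and absent afterwards. Tfcp2l1, a STAT3 target, fell 69.0-fold (152 and 279 to 1.97 and 4.28 CPM, adjusted p = 2.46e-05, log2 fold change -6.12, and -6.73 without ectoderm-like replicate 2). Klf4 fell 20.3-fold, from 71.5 and 87.5 to 2.95 and 4.89, and stood at 39.2 and 28.0 in XEN-like cells. Icam1 fell 17.2-fold.

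Genes of DNA methylation moved both ways, with 4 risers and 6 fallers of 16. The cofactor Dnmt3l fell 11.9-fold from 82.1 and 32.0 to 5.90 and 3.67 CPM (adjusted p = 0.0011, log2 fold change -3.54, and -2.71 without mESC replicate 1) and read 119 and 69.5 in XEN-like cells. The demethylating enzymes Tet1 and Tet2 fell, the latter 9.26-fold with a call that was lost without ectoderm-like replicate 2 (adjusted p = 0.0616), and Tet3 rose 4.99-fold. The calls of Tet3 and of Mbd2 were lost under 5 and 6 alternatives. Dnmt3a, the de novo methyltransferase, rose 4.37-fold from 6.28 and 9.66 to 42.8 and 26.9 (adjusted p = 0.00541, and 0.0576 without ectoderm-like replicate 1). Without ectoderm-like replicate 1 none of the 16 was called higher.

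In the list of glycolysis and pyruvate metabolism 8 of 24 tested genes fell and 2 rose. Ldhb, a lactate dehydrogenase subunit, fell 5.02-fold from 543 and 1084 to 142 and 182 CPM (adjusted p = 0.00123) and Pfkp, a phosphofructokinase, 8.42-fold, while the glucose transporter gene Slc2a1 rose 3.22-fold from 33.3 and 37.6 to 126 and 102 (adjusted p = 0.00204) and the enolase gene Eno3 8.78-fold. For Eno3 the log2 fold change of 3.11 was 3.88 without mESC replicate 1. Without ectoderm-like replicate 1, and equally without mESC replicate 2, the fallers numbered 3. Asns, asparagine synthetase, fell 11.9-fold from 1402 and 1212 to 102 and 118 CPM (log2 fold change -3.57 ± 0.28 SE, adjusted p = 1.7e-05), and Atf4, the transcription factor of the amino acid response that drives it, 6.95-fold, with a log2 fold change of -2.79 that was -2.13 without mESC replicate 2. In the same list of p53 targets and stress genes, which held 5 risers and 2 fallers of 20, the immediate early gene Jun rose 17.4-fold from 0.966 and 2.54 to 30.0 and 31.2 CPM (adjusted p = 0.000214, log2 fold change 4.08, and 4.86 without mESC replicate 2). Fos rose to 21.6 and 6.12 with a call that was lost by DESeq2 and without mESC replicate 1 or ectoderm-like replicate 1. The ectoderm-like cells had been stained and sorted, whereas the mESCs were taken as a complete population. The unsorted culture at 96 h of RA, 1 library that holds both cell types, read 27.9 CPM for Jun and 14.15 for Fos. The part of the sort in these values was not tested.

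For the ranking by absolute level the 53 known marker genes were again left out. The largest gains after Crabp2, a working marker that is not among the 53, were those of Tuba1a, Hmgn2, Tmsb4x, Myh10 and Wbp5. Tuba1a, a tubulin of dividing and neural cells, read 899 and 1005 CPM in mESCs and 1463 and 2278 in ectoderm-like cells, and its call (adjusted p = 0.042) was lost without mESC replicate 1, mESC replicate 2 or ectoderm-like replicate 2 (0.105 to 0.283). Tmsb4x, thymosin beta 4, read 458 and 1384 CPM in ectoderm-like cells and lost its call without replicate 2 of that group (adjusted p = 0.496 against 0.0432), without mESC replicate 2 and by DESeq2. Hmgn2, a nucleosome-binding protein, rose 2.35-fold (adjusted p = 0.00527, and 0.0629 without mESC replicate 2) and Wbp5 2.98-fold (adjusted p = 0.00322). With the same genes left out, the largest losses were those of Ftl1, Eif2s2, Rpl37a, Gm6083, Mt1 and Rpl24. The call of Ftl1 was lost without mESC replicate 2 (adjusted p = 0.0544). Eif2s2, a subunit of the translation initiation factor eIF2, fell 4.96-fold from 5240 and 4042 to 936 and 934 CPM (adjusted p = 0.000118). Gm6083 is a Dppa5a-like gene, which the annotation gives as a processed pseudogene and which may share reads with its parent gene. Dppa5a itself fell and is in the pluripotency set that was left out here. Gm6083 fell 45.8-fold from 2058 and 3375 to 77.2 and 41.6 CPM (adjusted p = 9.88e-06) and stayed at 959 and 858 in XEN-like cells. Mt1, metallothionein 1, fell 10.7-fold from 1549 and 4196 to 304 and 236 CPM, with a log2 fold change of -3.41 that was -2.54 without mESC replicate 2. The calls of the ribosomal protein genes Rpl37a and Rpl24 were lost with library totals and when each of the 4 libraries was left out in turn (adjusted p up to 0.234 for Rpl37a and 0.23 for Rpl24). Of 91 tested ribosomal protein genes 7 were called lower (7.69%, beside 9.28% of all genes) and 1 higher, with library totals 3 were lower, and their summed share of UMIs was 30.5% and 31.9% in mESCs and 26.7% and 29.5% in ectoderm-like cells. In such bulk libraries fewer cells of a type and less RNA per cell cannot be told apart, and multi-copy genes such as Ftl1 and those of ribosomal proteins may share reads with pseudogenes.

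The XEN-like libraries, which had the same RA treatment, were tested against the ectoderm-like libraries in the same fit. This comparison shares the ectoderm-like libraries with the one that chose the risers, so genes picked for a high level there are drawn towards a lower value in XEN-like cells, and their counts are a description. Of the 8947 genes 625 (6.99%) were higher and 514 (5.74%) lower in XEN-like cells. Leaving out 1 library of either sorted type lowered these counts, to 151 and 145 without ectoderm-like replicate 1, 443 and 224 without ectoderm-like replicate 2, 318 and 160 without XEN-like replicate 1, and 342 and 214 without XEN-like replicate 2. Of the 15 largest risers 12 (80.0%) were lower in XEN-like cells, beside 263 (33.7%) of the 781 risers chosen under the same conditions, and Nedd9, Foxa2 and Rarb were not called. Ptn had 1 and 0 UMIs in XEN-like cells and Ednrb 2 and 0. Ccnd2, with 71 and 86 UMIs, was 2.91 lower on the log2 scale in XEN-like than in ectoderm-like cells but far above its 2 and 1 UMIs in mESCs. Foxa2 read 29.9 and 23.1 CPM in XEN-like cells and 11.3 and 26.9 in ectoderm-like cells (adjusted p = 0.526). Of the 12 largest fallers none was called between the sorted cell types, with few UMIs on either side. Among the lists, 10 of 11 tested Sox and proneural genes and 8 of 14 Hox, TALE and caudal genes were lower in XEN-like cells, as were 14 of 27 imprinted and IGF genes. In the other direction 10 of 38 actin and junction genes and 9 of 37 naive pluripotency and germline genes were higher in XEN-like cells.

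Further bulk libraries, 1 per condition and hence without a test, placed these genes in time. Those used are cultures sampled without sorting at 9 time points of RA exposure, fractions sorted at 72 h by PDGFRA and by terciles of CD24 signal, and ectoderm-like cells propagated after the sort in N2B27 with EGF and FGF2, labelled P5. Fractions sorted at 48 h by CD24 and cultured XEN-like cells are not described. Hoxb2 was early in the whole culture, where it read 143 CPM by 24 h, peaked with 695 at 36 h and had dropped to 67.2 by 96 h. Crabp2 followed, from 112 at 24 h through 938 at 48 h to its highest value of 1073 at 60 h. Ednrb went from 1.98 at 36 h to 40.0 at 48 h, Ptn from 0.661 at 36 h to 16.3 at 48 h and 57.1 at 72 h, and Ccnd2 from 28.0 at 48 h to 156 at 60 h. Foxb1 and Fgf15 were later, at 0.777 and 0.388 CPM at 48 h and 27.4 and 35.1 at 84 h. As the whole culture holds both cell types, these values mix them.

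At 72 h the CD24 fractions of PDGFRA- cells could be compared with each other. Of the 15 largest risers 12 (80.0%) were higher in the tercile with the highest CD24 signal than in the lowest, against 65.8% of the 781 genes that met the same conditions and 46.9% of all genes tested. A rise at each step, from the lowest through the middle to the highest tercile, was seen in 9 of the 15 (60%), in 35.3% of the 781 and in 19% of all genes tested. Ccnd2 read 36.5, 129 and 458 CPM from the lowest to the highest tercile and 30.3 in PDGFRA+/CD24- cells. Ednrb read 21.1, 58.8 and 131 in the same order and 0.776 in PDGFRA+ cells, and Fgf15 7.29, 16.7 and 84.7 against 0. Foxa2, Zfp703 and Rarb were instead lower in the highest tercile than in the lowest, with Rarb at 25.1, 21.1 and 17.2. The cultured cells retained some of these genes and not others. Ptn reached 579 CPM there, above both sorted libraries, and Fbn2 60.7, whereas Ednrb read 0.502, Foxa2 and Nepn had no UMI, and Crabp2 had fallen to 172. Of the 15 risers 12 (80.0%) were above both mESC libraries in culture, near the 81.2% of the 781 risers, and 8 (53.3%) were below both sorted libraries, near their 55.8%. The heat map of the 20 libraries shows these profiles.

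**Figure D4:**
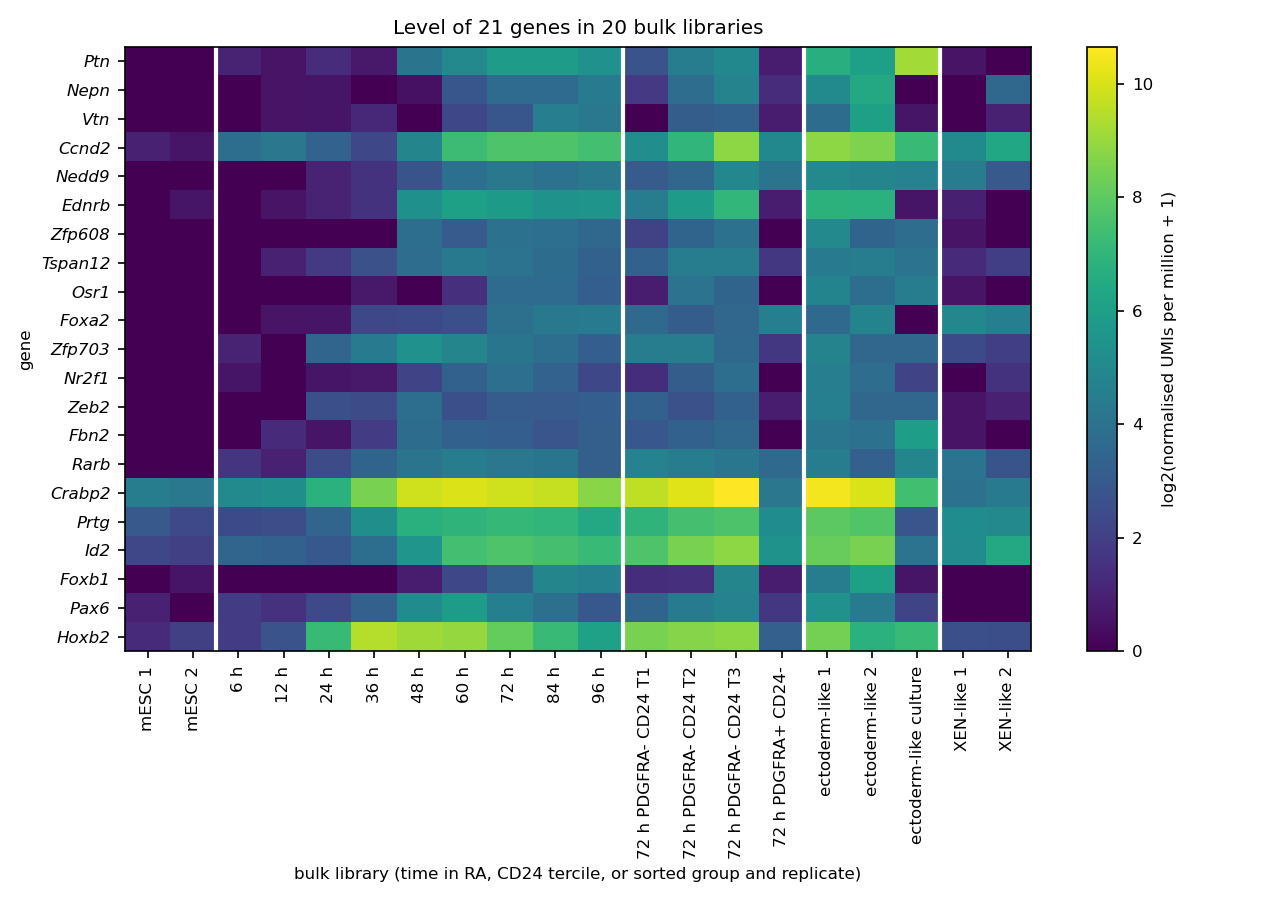
Level of the 15 largest risers and of Crabp2, Prtg, Id2, Foxb1, Pax6 and Hoxb2 (rows), as log2 of TMM-scaled CPM plus 1 (colour), in 20 bulk libraries (columns): mESCs, the time course of the whole culture, the fractions sorted at 72 h, the ectoderm-like cells sorted at 96 h and in culture, and the sorted XEN-like cells. Hoxb2 is at 143 by 24 h and Ptn reaches 579 in culture, and Ednrb is near 0 in mESCs, in PDGFRA+ cells and in culture.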

How the data were processed

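Bulk RNA-seq was analysed in 6 libraries: mESCs, sorted ectoderm-like and sorted XEN-like cells, 2 each. The authors mapped reads onto RefSeq mRNAs of the mouse (BWA 0.7.4) and deposited the number of distinct UMIs per gene as counts, without normalization. Libraries are primed at the 3′ end, so levels of genes are not corrected for length. Of the 23481 genes in the table, Rn45s and Gkn2 were left out because 3 of their values were damaged, and names turned into dates by a spreadsheet were kept in totals but not named. No column of per-sample values was left unmapped; single-cell files were not used here.

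The test was edgeR's quasi-likelihood test (version 4.0.16, R 4.3.3), run on counts of the 6 libraries together after TMM scaling and filterByExpr. P-values were adjusted over 8947 genes by Benjamini-Hochberg with a threshold of 0.05, and the biological coefficient of variation was 0.247. SE is that of the fitted log2 fold change. Folds are ratios of mean levels; where a group had no UMI a floor of 3 UMIs over the group gives a lower bound, and with 1 to 3 UMIs the ratio of summed UMIs has an exact 95% interval. Intervals and floors cover counting error only. On simulated counts the test recovered 6 of 99 genes changed 2-fold (6.06%) and 80 of 101 changed 4-fold (79.2%), among 7879 genes run. A gene that was not called may therefore still have changed about 2-fold. All groups were simulated from the mean levels of mESCs with a single dispersion, and only genes detected in mESCs were changed. Far fewer genes changed there than were called here, so recovery in the measured libraries may differ. The study's methods speak of biological replicates for mESCs and for the ectoderm-like and XEN-like cells at 96 h. The labels do not name separate cultures, so the spread between libraries may in part be technical. Gates had used the proteins of Cd24a and Pdgfra.

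Genes were named by rule: the 15 largest rises and 12 largest falls among called genes with at least 10 UMIs in each library of the higher group and no disagreement in sign between library pairs, outside 53 known marker genes; the 6 largest gains and losses of level; up to 3 risers and 3 fallers of each of 21 lists; and the working markers Crabp2, Ccnd2, Prtg and Ptn. Genes outside this rule are named as called members of a list, as markers listed at 0 UMIs, as background or, for Cd24a and Pdgfra, as the genes of the gates. Cyp26a1, Hbb-y and Blvrb (a promoter motif) and Fabp7, Meox1 and Dab2 were named after their values were seen. Members and lists were chosen with earlier results of these data known. Some list members also belong to the marker sets. Hoxb2, Meis1 and Pax6 are in the ectoderm set, and Klf4, Tfcp2l1, Fgf4 and Sox2 in the pluripotency set. Alternatives were DESeq2 1.42.0, library totals, other low-count filters, fewer libraries and a replicate block. Promoter windows came from RefSeq (GRCm38.p6), the release of the mm10 build the authors used. Python 3.11.15 made the tables and figures.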

Additional observations from a re-analysis of the deposited data

Results flagged for a closer look

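For 12 of the 15 largest risers the level differed between XEN-like and ectoderm-like libraries in the shared edgeR fit, as it was lower in XEN-like cells for 263 (33.7%) of the 781 risers chosen under the same conditions. The ectoderm-like libraries had also served to choose these genes, so the values are a description and no independent test. On the log2 scale, the level in XEN-like minus that in ectoderm-like cells was -7.78 for Ptn, -7.33 for Ednrb, -6.63 for Vtn, -5.77 for Zfp608, -5.74 for Osr1 and -5.40 for Fbn2. The differences were -4.63 for Nr2f1, -4.59 for Zeb2, -3.86 for Nepn, -3.34 for Tspan12, -2.91 for Ccnd2 and -2.29 for Zfp703. The adjusted p ranged up to 0.0338 for Zfp703. The fitted values of genes with 0 to 2 UMIs in the XEN-like libraries depend on the prior count of the fit and are given as a description of order.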

How the results depend on the processing

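The 122 genes counted here are those chosen by rule, of which not all are described, and the gate genes Cd24a and Pdgfra. None of the 122 changed direction under any alternative run, and 88 of them kept their call under every alternative that gave a value. For Hes5, Magel2, Sox6 and Hoxb3 this leaves out 1 or 2 of 10 alternatives. The call was lost in 90 of 1207 combinations of gene and alternative, at most 21 of them without ectoderm-like replicate 1 and 14 with DESeq2. Leaving out 1 library moved the fitted fold of 64 of the 122 by over 1.5 times, and of 35 by over 2 times. Of the 27 largest rises and falls 22 kept the call throughout, and the other 5 lost it with DESeq2 only. The number of genes called higher in ectoderm-like cells was 1372 with library totals, 1337 with no low-count filter (16426 genes tested) and 558 with DESeq2, against 881; 557 of those 558 were among the 881. Leaving out each library in turn gave 419 to 651 genes higher and 457 to 754 lower, the lowest of both without ectoderm-like replicate 2; without ectoderm-like replicate 1 it was 562 and 467, and without mESC replicate 2, whose label carries no barcode, 651 and 693. Between the sorted cell types, 828 genes were lower in XEN-like cells with no filter and 283 with DESeq2, against 514, and leaving out libraries gave 151 to 443 higher and 145 to 224 lower, with 151 and 145 without ectoderm-like replicate 1. The cause was not tested, but each such fit has fewer samples. With the replicate block of the sorted libraries 952 genes were higher and 1021 lower than in mESCs, and 744 higher and 595 lower in XEN-like cells; among named genes Mbd2 alone lost its call. Same-numbered sorted libraries deviated together with a correlation of 0.333 across genes, over 2 pairs only, and the numbers are not known to pair the cultures. Of 420 counts of list members under the alternatives, 344 stayed within 1.5 times. Depth limits genes of few UMIs, and for those with none in a group only a bound on the fold can be given.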

Other observations

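A few genes with roles in other or later cell types separated the ectoderm-like replicates from each other. They were chosen after their values were seen, and the difference between the replicates carries no test. Fabp7 and Meox1 carry no test against mESCs either. Fabp7, a fatty acid-binding protein of radial glia, had 5 UMIs in replicate 1 and 81 in replicate 2, and none in the mESC or XEN-like libraries. Meox1, a homeobox gene of the paraxial mesoderm, had 59 in replicate 1 and 6 in replicate 2, against 1 and 1 in mESCs. Dab2, an endocytic adaptor of extraembryonic endoderm, had 55 and 374, with 7 and 3 in mESCs and 2486 and 1042 in XEN-like cells.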
